A study of Homo sapiens with 12 samples.

Results

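Mitochondrial transcription and RNA-stability factors are nuclear genes whose products make, cut, hold or degrade the RNA copied from mitochondrial DNA. The 10 followed here were chosen by name, as genes for the synthesis, processing and decay of mitochondrial RNA, and they are 10 of the 58735 genes of the deposited tables. All 10 were among the 17729 genes with enough counts to be tested: POLRMT, TFAM, TFB2M and TEFM for transcription, LRPPRC and SLIRP for mRNA stability, PNPT1 and SUPV3L1 for decay, and TRMT10C and FASTKD2 for processing and RNA granules.

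Mitochondrial DNA is transcribed from both strands by a dedicated RNA polymerase into long precursors that hold rRNAs, mRNAs and tRNAs in a row. The tRNAs are cut out at both ends, which frees most of the mRNAs. The mRNAs are then held by RNA-binding proteins and tailed, while antisense and surplus RNA is unwound and degraded from its 3′ end. Every protein of this pathway is translated in the cytosol and imported, so that what was measured here is the level of its nuclear-encoded mRNA and not the protein or its activity.

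Polyadenylated RNA was sequenced from HEK293T, a line from human embryonic kidney that carries the SV40 large T antigen, in 4 groups of 3 libraries. The DMSO group had neither compound. The CEP group had the clickable electrophilic purine AHL-Pu-1, a probe that reacts with cysteines, for 1 h, the 4SU group had 4-thiouridine, a uridine analog that is built into new RNA and crosslinks to protein under UV light, at 100 µM for 16 h, and the CEP+4SU group had both. The CEP dose is 25 µM in the design text and 25 mM in the treatment protocol of the sample labels. The same protocol, with its crosslinking step at 312 nm, stands on all 12 libraries, and it does not say whether cells without 4SU were irradiated. The study used the RNA-Seq to ask whether its labeling conditions altered the transcriptome. The study's supplement calls the experiments biologically independent, while the labels do not tie the libraries to cultures. The p-values weigh a difference between groups against the spread between libraries of the same group. That spread was estimated over the 4 groups together, with information shared among genes.

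The libraries held 16569114 to 24644734 counts on genes. CEP replicate 2 and CEP+4SU replicate 2 stood apart from the other 10 libraries: genes with at least 1 count numbered 22230 and 22627 there against 24376 or more elsewhere, and both lay lowest on the first principal component. Of 8 marker genes of HEK293T cells, 6 were at or above 1 FPKM (fragments per kilobase of gene, scaled to library size) in every library. The same held for 0 of 5 markers of T cells, 0 of 3 of hepatocytes, 1 of 5 of lung adenocarcinoma (NKX2-1), 1 of 5 of fibroblasts (COL1A1) and 2 of 5 of melanoma, MITF at 2.49 to 3.83 FPKM and PMEL at 1.15 to 2.73, while TYR of melanocytes was at 0 in all 12. The libraries also differed by the GC content of genes. With the tested genes divided into 4 equal classes of GC content, the median log2 fold change in the averaged CEP comparison went from 0.15 in the class with the lowest GC content to -0.19 in the class with the highest.

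The 10 genes lie on 7 autosomes, and their positions follow the deposited table on GRCh38. POLRMT is on chromosome 19 (617224 to 633604, minus strand), and its longest transcript has a GC content of 66.3%, above that of 97.6% of the tested genes. The other 9 members lie between 36.5% for FASTKD2 and 45.7% for SUPV3L1, all below the median of 48.5% over tested genes. TFAM (chromosome 10, 58385022 to 58399221) and SUPV3L1 (chromosome 10, 69180232 to 69209099) are both on the plus strand. LRPPRC (43886508 to 43996005), PNPT1 (55634265 to 55693910) and FASTKD2 (206765357 to 206792509) share chromosome 2. TFB2M is on chromosome 1 (246540560 to 246566324), TRMT10C on chromosome 3 (101561862 to 101566446), SLIRP on chromosome 14 (77708071 to 77761104) and TEFM on chromosome 17 (30897336 to 30906820). SLIRP overlaps SNW1, TEFM overlaps ADAP2 and FASTKD2 overlaps MDH1B on the opposite strand, with 2055 to 2893, 261 to 420 and 21 to 57 counts per library. No source used here says if the counting was strand-aware. It is therefore not known whether reads of SLIRP and SNW1 were told apart where the genes overlap. Reads of POLRMT may also be shared with the pseudogene POLRMTP1, which had 31 to 86 counts per library.

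Nuclear respiratory factor 1 and the ETS-family factor GABP are known regulators of several genes for mitochondrial transcription, and the promoters were searched for their core letters to see what members share beyond function. The windows were the 250 bases before the RefSeq start of each gene on GRCh38.p14, found for 10 of 10 members. The NRF1 letters CGCANGCG, where N is any base, were searched on both strands and occurred in 3 of 10 members and in 8.7% of 35116 promoters of the same length. Those 3 belong to the transcription apparatus, and are shown as 30 bases around the match on the strand of the gene, with the match in capitals.
POLRMT: ggcgcgggCGCATGCGCAGGCGcgggccgg
TFAM: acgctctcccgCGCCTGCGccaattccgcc
TFB2M: aaggctccgctgttCGCATGCGcaggctct
These are chr19:633539-633568 on the minus strand, chr10:58385337-58385366 on the plus strand and chr1:246566262-246566291 on the minus strand. POLRMT holds 2 overlapping matches, the TFAM match reads as the other strand of the motif, and all 3 stretches fall inside the wider gene bounds of the deposited table. The ETS letters CCGGAAG occurred in 8.5% of the promoters and in 3 of 10 members, POLRMT, SLIRP and TRMT10C, of which TRMT10C holds 2 matches that face each other.
TRMT10C: cgCCGGAAGggagagggcggaaCTTCCGGc
SLIRP: ataccctctgatCCGGAAGcagattctctc
These are chr3:101561818-101561847 and chr14:77708015-77708044, both on the plus strand. The NRF1 and ETS matches coincide in POLRMT alone. A match describes letters in a window and not a bound site.

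The members spanned a wide range of levels in untreated cells. In DMSO, mean FPKM ran from 62.3 ± 4.37 (SD, n = 3) for TRMT10C, a subunit of the RNase P that cuts mitochondrial tRNAs at their 5′ ends, to 3.43 ± 0.582 for TEFM, the elongation factor of the mitochondrial polymerase. TRMT10C stood above 96.3% of tested genes and TEFM above 48.3%. LRPPRC, which with SLIRP binds and stabilizes mitochondrial mRNAs, followed TRMT10C at 42.2 ± 1.23 FPKM. TFAM, the DNA-bending factor that acts at the promoters and packages mitochondrial DNA, had 34.8 ± 1.08 FPKM, and POLRMT, the RNA polymerase itself, 31.2 ± 1.26. SLIRP (26.6 ± 1.98) and PNPT1 (25.7 ± 0.975) were neighbours whose DMSO libraries overlapped, so their order is not set. The same held for SUPV3L1 (17.9 ± 2.09) and TFB2M (14.9 ± 1.42). FASTKD2 had 8.35 ± 0.773 FPKM and did not overlap with either neighbour. Each other step in the order was larger than the spread of the 3 libraries.

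**Figure D1:**
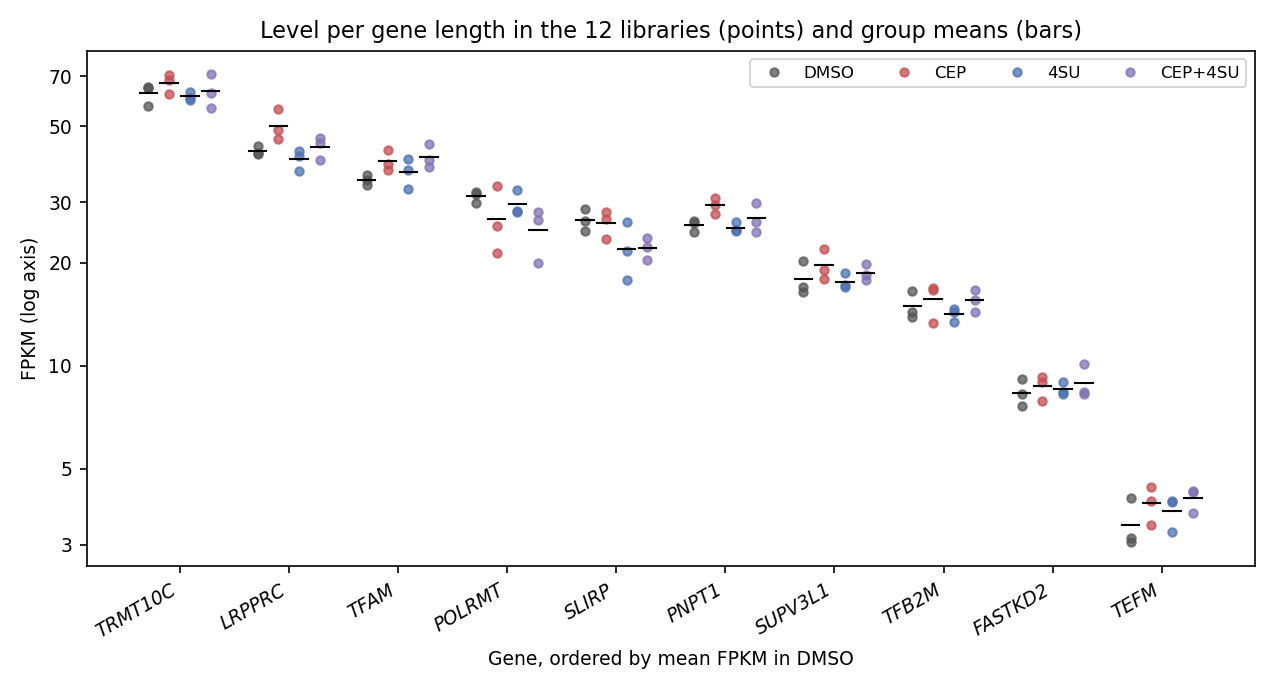
FPKM (log axis) of the 10 factors in each of the 12 libraries, colored by group, with bars for group means, ordered by mean FPKM in DMSO. The order from TRMT10C (62.3 in DMSO) to TEFM (3.43) was far wider than the differences between groups within a gene.

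Across all 12 libraries, each member varied by less than 2 times. In CPM (counts scaled to a common library size after TMM), the ratio of the highest to the lowest library was 1.26 for TFB2M, PNPT1 and TRMT10C, 1.52 for LRPPRC, 1.61 for SLIRP and 1.68 for POLRMT. The libraries CEP 2 and CEP+4SU 2 held the highest level of 7 of 10 members and the lowest level of 2, TFB2M in CEP 2 and POLRMT in CEP+4SU 2. SLIRP alone had both extremes elsewhere, in 4SU 2 and DMSO 1.

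**Figure D2:**
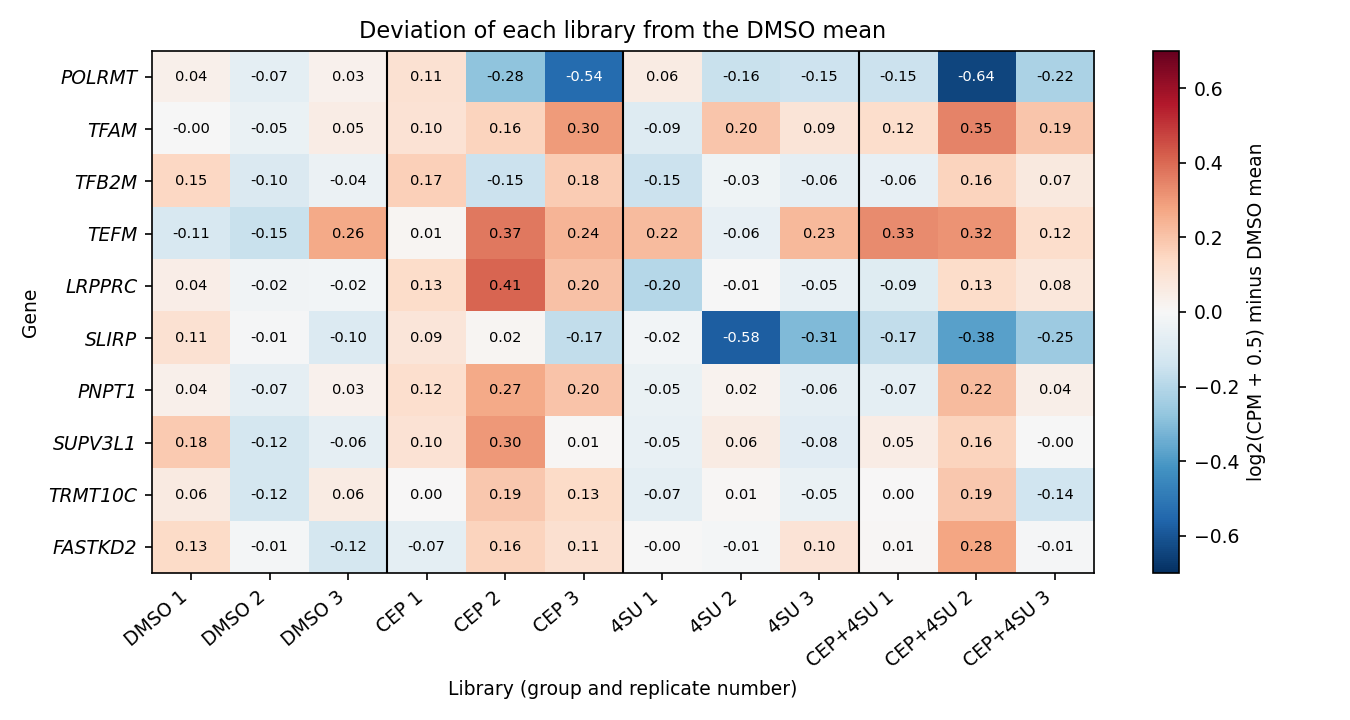
Log2(CPM + 0.5) of each factor in each library minus its mean over the 3 DMSO libraries, with the value printed in each cell. POLRMT was -0.54 in CEP 3 and -0.64 in CEP+4SU 2, SLIRP was -0.58 in 4SU 2, and LRPPRC was 0.41 in CEP 2.

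No member passed an adjusted p of 0.05 in any of the 6 comparisons of the design (edgeR quasi-likelihood test, Benjamini-Hochberg over all 17729 genes). Against that 0, the share of all tested genes called was 0.0564% for CEP against DMSO, 0.00564% for 4SU against DMSO and 1.64% for CEP+4SU against DMSO. It was 0.276% for CEP averaged over 4SU, in which all 6 libraries with CEP were set against all 6 without, 0.558% for 4SU averaged over CEP, and 0% for the interaction of the compounds. A count of 0 among 10 genes is near each of these shares. DESeq2 called 1 member, LRPPRC in the averaged CEP comparison, where it called 8.31% of the 17729 genes, and 0 in the other comparisons. The 3 comparisons with DMSO share its 3 libraries. Fitted on its own 6 libraries alone, 4SU against DMSO called 0.53% of the 17729 genes. CEP against DMSO called 0.0282% in this way and CEP+4SU against DMSO 3.2%, with 0 members in each.

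At an unadjusted p under 0.05, 3 members were counted for CEP against DMSO, 1 for 4SU, 3 for CEP+4SU, 4 for CEP averaged, 2 for 4SU averaged and 0 for the interaction. The shares of all genes at that level were 18.6%, 6.50%, 21.4%, 24.3%, 12.6% and 2.63%. The fitted values of 8 of 10 members were above 0 in the averaged CEP comparison, with a median log2 fold change of 0.11, against a median of -0.006 over all tested genes. The median was 0.15 and 0.06 over the lower 2 of the 4 GC classes, which hold 9 of the 10 members. With each library's trend on GC content removed, 5 members were above 0 and 5 below, with a median of -0.003. In the averaged 4SU comparison 3 were above 0, with a median of -0.06. The members' median absolute log2 fold change was 0.13 for CEP averaged and 0.070 for 4SU averaged, and that of all tested genes was 0.15 and 0.10. The 95% intervals of the 10 members together ran from -0.43 to 0.39 on the log2 scale for CEP averaged, from -0.44 to 0.31 for 4SU averaged and from -0.61 to 0.57 for CEP+4SU against DMSO, so that log2 changes beyond 0.61 in either direction lay outside the interval of every member.

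**Figure D3:**
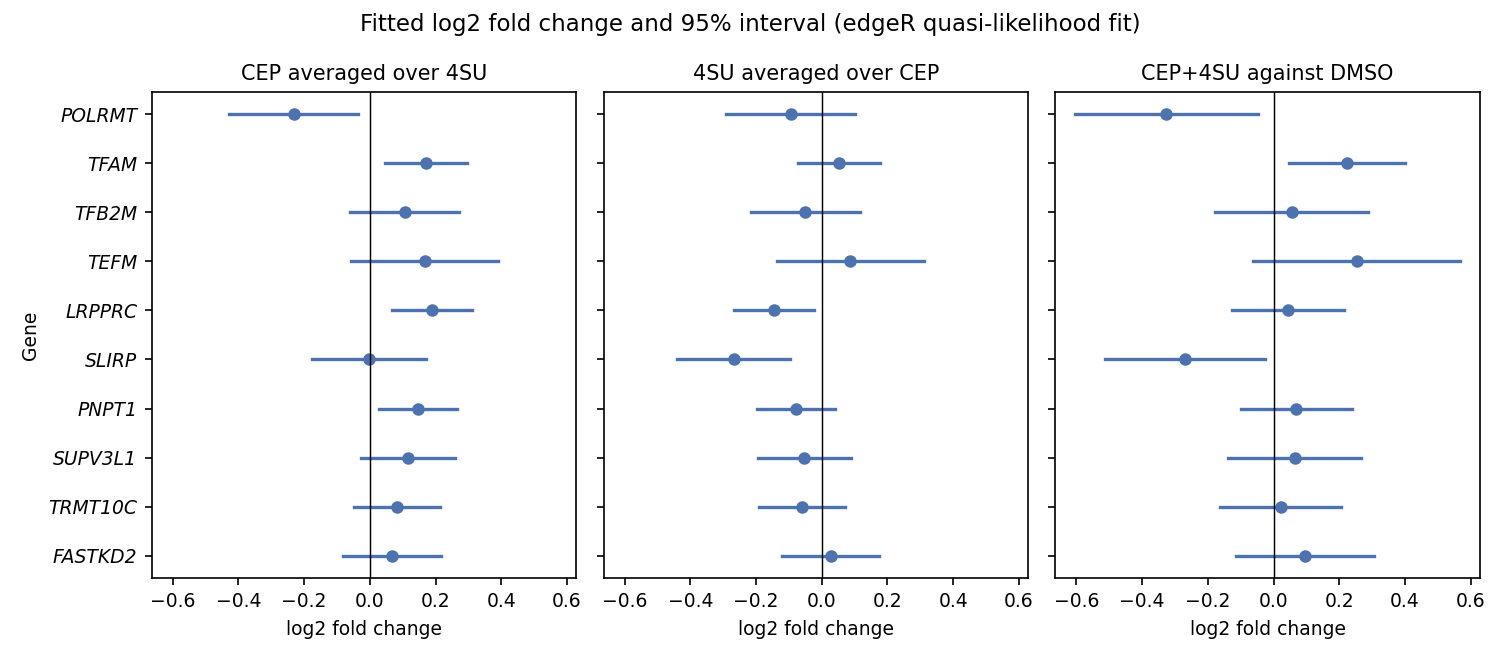
Fitted log2 fold change (point) with its 95% interval (line) for each factor in 3 comparisons. POLRMT lay lowest and LRPPRC highest for CEP averaged over 4SU, SLIRP lay lowest for 4SU averaged over CEP, and no value passed the adjusted threshold.

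The 4 transcription genes gave fitted values of both signs. POLRMT had 165, 153 and 165 CPM in the DMSO libraries, 173, 133 and 110 in CEP, 168, 144 and 145 in 4SU, and 145, 103 and 138 in CEP+4SU. The 3 libraries with both compounds lay below all 3 DMSO libraries, while CEP 1 was the highest of the 12. The log2 fold change of POLRMT was -0.23 (SE 0.094, adjusted p = 0.145) for CEP averaged and -0.33 (SE 0.13, adjusted p = 0.170) for CEP+4SU against DMSO. Without CEP 2 and CEP+4SU 2 these values were -0.15 (adjusted p = 0.380) and -0.19 (adjusted p = 0.460). Leaving aside fits with a replicate term, they passed the threshold when low-count genes were kept in the test (adjusted p = 0.00780 and 0.0109), and CEP averaged also passed without CEP 1 (-0.33, adjusted p = 0.0194). With low-count genes kept, 8.08% and 6.92% of the 17729 genes were called, beside 0.276% and 1.64% in the main fit. Without CEP 1, CEP averaged called 12.2%.

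The level of POLRMT was set beside that of other GC-rich genes, library by library. Its deviation from the DMSO mean was 0.11, -0.28 and -0.54 on the log2 scale in the 3 CEP libraries and -0.15, -0.64 and -0.22 with both compounds. The median over the class of tested genes with the highest GC content was -0.06, -0.32 and -0.27 in the former and -0.09, -0.40 and -0.16 in the latter. Among the CEP libraries, POLRMT was lowest in CEP 3 and the class in CEP 2. With each library's trend on GC content removed, the log2 fold change of POLRMT was 0.035 (adjusted p = 0.890) for CEP averaged and -0.021 (adjusted p = 0.943) for CEP+4SU against DMSO. The class median was negative in every library with CEP, where the GC trend and the treatment were not separated. In the 4SU libraries, which had no CEP, the class median was 0.010, -0.15 and -0.11. POLRMT was at 0.059, -0.16 and -0.15 there. Whether the GC trend accounts for the POLRMT values was not tested.

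**Figure D4:**
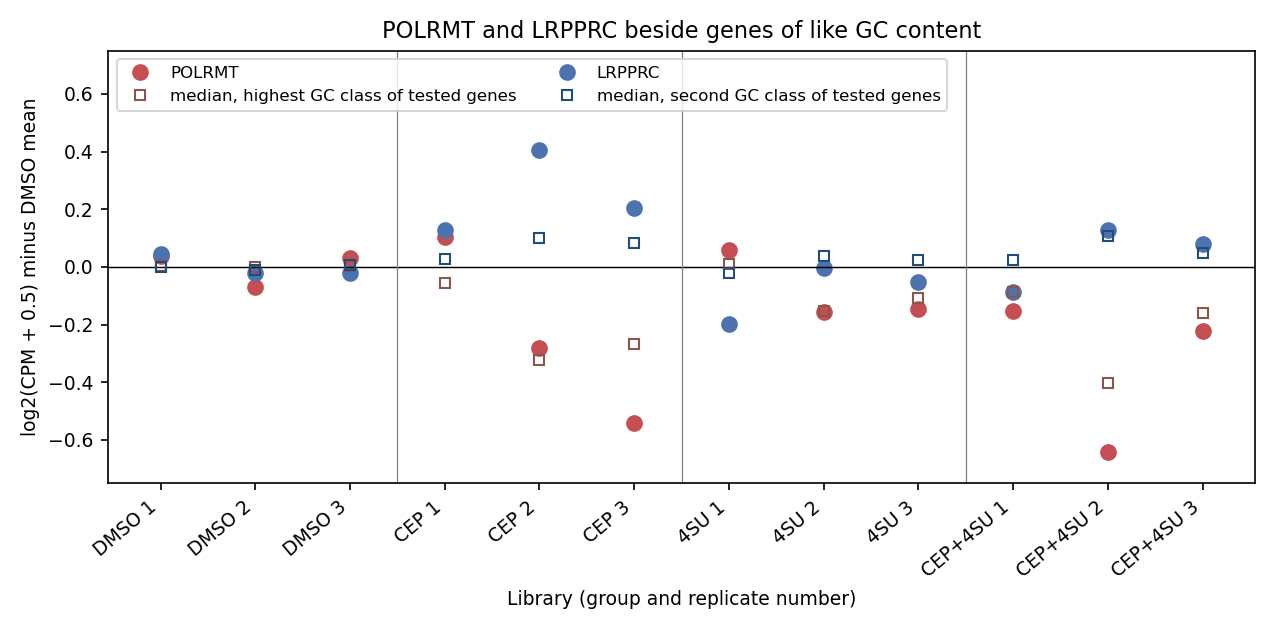
Log2(CPM + 0.5) minus the DMSO mean for POLRMT (red) and LRPPRC (blue) in each library, beside the medians of the tested genes in the GC class of each (open squares: the highest of the 4 classes for POLRMT, the second for LRPPRC). In CEP+4SU 2, POLRMT was at -0.64 and its class at -0.40, the lowest of the 12 libraries for both. The GC content of LRPPRC (42.4%) lies close to the lower bound of its class (42.2%). In CEP 2 the median was 0.10 in that class and 0.23 in the class below, which is not drawn.

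TFAM had 196, 191 and 204 CPM in DMSO, 211, 219 and 242 in CEP, 185, 226 and 210 in 4SU, and 214, 250 and 225 in CEP+4SU. All libraries with CEP alone or with both compounds lay above the 3 DMSO libraries, and the 4SU libraries overlapped with DMSO. Its log2 fold change was 0.17 (SE 0.060, adjusted p = 0.104) for CEP averaged and 0.22 (SE 0.085, adjusted p = 0.140) for CEP+4SU against DMSO, neither past the threshold. With the GC trend removed the value for CEP averaged was 0.0074 (adjusted p = 0.972), and without CEP 2 and CEP+4SU 2 it was 0.14 (adjusted p = 0.242). Among fits without a replicate term it passed without CEP 1 (0.19, adjusted p = 0.0466). That fit called 12.2% of the 17729 genes, beside 0.276% in the main fit. The ratio of TFAM to POLRMT in FPKM was 1.09, 1.14 and 1.13 in DMSO, 1.11, 1.51 and 2.0 in CEP, 1.01, 1.43 and 1.32 in 4SU, and 1.35, 2.22 and 1.49 in CEP+4SU. The ratio lay closest together in DMSO, and CEP 1 was inside the DMSO range. The 2 genes differ in GC content, with 38.4% for TFAM and 66.3% for POLRMT. Whether the GC trend of the libraries accounts for the ratio was not tested.

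TFB2M, the transcription factor that melts the promoter and enters the initiation complex with POLRMT, did not separate the groups. It had 30.8, 25.8 and 26.9 CPM in DMSO, 31.2, 24.9 and 31.4 in CEP, 24.9, 27.2 and 26.5 in 4SU, and 26.6, 31.0 and 29.1 in CEP+4SU, and every treated group overlapped with DMSO. TEFM, the lowest member per length, had 9.90 to 13.4 CPM in DMSO and 11.2 to 14.4 in CEP, from 180 to 323 counts per library. Its log2 fold change for CEP+4SU against DMSO was 0.25 with a 95% interval of -0.06 to 0.57, the widest of the members.

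LRPPRC and SLIRP form a complex in the mitochondrial matrix that coats mRNAs and keeps them from being degraded, and the largest fitted values of the 2 genes came in different comparisons. LRPPRC had 429, 409 and 410 CPM in DMSO, 454, 551 and 479 in CEP, 363, 414 and 401 in 4SU, and 392, 455 and 439 in CEP+4SU. The 3 CEP libraries lay above all 3 DMSO libraries, with CEP 2 highest, and the libraries with both compounds overlapped with DMSO. The log2 fold change of LRPPRC was 0.25 (SE 0.082, adjusted p = 0.181) for CEP against DMSO and 0.19 (SE 0.058, adjusted p = 0.0837) for CEP averaged, the smallest adjusted p of any member in any comparison. It was 0.04 for CEP+4SU against DMSO (SE 0.082, adjusted p = 0.8004).

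Of all members, LRPPRC crossed the threshold most often when the processing was altered. Leaving aside fits with a replicate term, for CEP averaged it passed by DESeq2 (0.18, adjusted p = 0.0320), with low-count genes kept (0.18, adjusted p = 0.0453), without CEP 1 (0.22, adjusted p = 0.0241) and without CEP+4SU 1 (0.20, adjusted p = 0.0468). Those fits called 8.31%, 8.08%, 12.2% and 6.37% of the 17729 genes, beside 0.276% in the main fit. LRPPRC did not pass without CEP 2 and CEP+4SU 2 (0.12, adjusted p = 0.258) or with the GC trend removed (0.074, adjusted p = 0.565). For 4SU averaged the value was -0.15 (SE 0.058, adjusted p = 0.287), and it passed with the GC trend removed (-0.15, adjusted p = 0.0408). That fit called 3.61% of the 17729 genes, beside 0.558% in the main fit.

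SLIRP had 75.9, 70.1 and 65.9 CPM in DMSO, 74.9, 71.3 and 62.4 in CEP, 69.5, 47.0 and 56.8 in 4SU, and 62.5, 54.2 and 59.1 in CEP+4SU. The libraries with both compounds lay below all 3 DMSO libraries, those with CEP alone overlapped with DMSO, and 4SU 1 lay inside the DMSO range while 4SU 2 was the lowest of the 12. The log2 fold change of SLIRP was -0.27 (SE 0.082, adjusted p = 0.152) for 4SU averaged and -0.003 (SE 0.082, adjusted p = 0.989) for CEP averaged. The former passed, among fits without a replicate term, with low-count genes kept (-0.26, adjusted p = 0.0293), and was -0.23 (adjusted p = 0.195) without CEP 2 and CEP+4SU 2. With low-count genes kept, 4SU averaged called 1.74% of the 17729 genes, beside 0.558% in the main fit. The ratio of LRPPRC to SLIRP in FPKM was 1.59 ± 0.0785 (SD, n = 3) in DMSO, 1.93 ± 0.256 in CEP, 1.89 ± 0.484 in 4SU and 1.99 ± 0.288 in CEP+4SU. At least 1 library of each treated group lay above 2, and CEP 1 (1.63) and 4SU 1 (1.41) lay at or below the top of the DMSO range (1.68).

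PNPT1, the polynucleotide phosphorylase, and SUPV3L1, the helicase that feeds it RNA, form the mitochondrial degradosome. PNPT1 had 136, 127 and 135 CPM in DMSO, 144, 160 and 153 in CEP, 129, 135 and 127 in 4SU, and 127, 155 and 136 in CEP+4SU. The CEP libraries lay above DMSO, and both other groups overlapped with it. Its log2 fold change was 0.20 (SE 0.081, adjusted p = 0.216) for CEP against DMSO and 0.15 (SE 0.057, adjusted p = 0.130) for CEP averaged, and the latter was 0.085 (adjusted p = 0.449) without CEP 2 and CEP+4SU 2. SUPV3L1 had 87.3, 70.6 and 73.7 CPM in DMSO, 82.5, 94.96 and 77.5 in CEP, 74.0, 79.9 and 72.7 in 4SU, and 79.6, 85.8 and 76.7 in CEP+4SU. Every treated group overlapped with the wide DMSO range, and the log2 fold change for CEP averaged was 0.12 (SE 0.068, adjusted p = 0.301). The 2 subunits kept close proportions: the ratio of PNPT1 to SUPV3L1 in FPKM had a group mean of 1.44 ± 0.125 in DMSO, 1.502 ± 0.126 in CEP, 1.44 ± 0.0264 in 4SU and 1.44 ± 0.0973 in CEP+4SU.

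TRMT10C and FASTKD2 had the smallest fitted values for CEP averaged after SLIRP. TRMT10C had 124, 109 and 123 CPM in DMSO, 119, 135 and 130 in CEP, 113, 119 and 115 in 4SU, and 119, 135 and 107 in CEP+4SU, and its highest and lowest libraries, CEP+4SU 2 and CEP+4SU 3, were in the same group. FASTKD2, an RNA-binding protein of the mitochondrial RNA granule that is needed for ribosomal RNA and ribosome assembly, had 56.0, 50.6 and 46.9 CPM in DMSO, 48.6, 57.0 and 55.2 in CEP, 51.0, 50.6 and 54.7 in 4SU, and 51.3, 62.0 and 50.7 in CEP+4SU. All treated groups overlapped with DMSO for both genes. The log2 fold change for CEP averaged was 0.083 (SE 0.063, adjusted p = 0.433) for TRMT10C and 0.068 (SE 0.071, adjusted p = 0.586) for FASTKD2.

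Counted by range, 3 members had no overlap in CPM between CEP and DMSO (TFAM, LRPPRC and PNPT1, each higher), beside 23.7% of tested genes. For CEP+4SU against DMSO there were also 3 (TFAM higher, POLRMT and SLIRP lower), beside 28.7%, and for 4SU against DMSO there were 0, beside 17.9%. With the 6 libraries of each kind set against the other 6, 0 members were without overlap for CEP, beside 1.73% of tested genes, and 0 for 4SU, beside 1.35%. The members' shares were thus near those of all genes.

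No member passed for the interaction, which compares the response to CEP with and without 4SU (0 by edgeR, 0 at an unadjusted p under 0.05 and 0 by DESeq2). The fitted interaction ran from -0.12 for LRPPRC (SE 0.12) to 0.07 for TFB2M (SE 0.16) on the log2 scale, with an adjusted p of 0.9998 for each of the 10. The 95% interval was narrowest for PNPT1 (-0.34 to 0.14) and widest for TEFM (-0.53 to 0.37). With 3 libraries per group, an interaction within a member's own interval was not excluded.

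Around these 10 genes, 58 further genes of mitochondrial RNA metabolism were followed, all of them tested: 6 for mitochondrial DNA transcription, 6 for its replication, 6 for tRNA excision, 3′ ends and polyadenylation, 16 for stability, decay and the RNA granule, 17 for RNA modification, and 7 nuclear regulators. Of the 58, 1 passed the threshold, DDX28, a DEAD-box helicase of the mitochondrial RNA granule that takes part in ribosome assembly. DDX28 had 42.0, 37.7 and 39.5 CPM in DMSO, 31.1, 29.6 and 25.9 in CEP, 32.1, 34.6 and 34.2 in 4SU, and 28.8, 23.2 and 26.7 in CEP+4SU. All 6 libraries with CEP lay below all 6 without it. DDX28 fell by 0.41 on the log2 scale (SE 0.074, adjusted p = 0.0171) for CEP averaged and by 0.60 (SE 0.10, adjusted p = 0.0153) for CEP+4SU against DMSO. The calls held without CEP 2 and CEP+4SU 2 (-0.38, adjusted p = 0.0142, and -0.52, adjusted p = 0.0157) and with the GC trend removed (-0.29, adjusted p = 0.0397, and -0.46, adjusted p = 0.0107). For CEP averaged the call was lost without DMSO 1, DMSO 3, CEP 3 or 4SU 3 (adjusted p = 0.0563 to 0.0849). For CEP+4SU against DMSO it was lost without DMSO 1, DMSO 2, DMSO 3, CEP+4SU 2 alone or CEP+4SU 3 (adjusted p = 0.0521 to 0.0989).

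The list as a whole was centred near 0. For CEP averaged, 1 of 58 genes passed, 0 higher and 1 lower, the median log2 fold change was 0.02, and 16 genes (27.6%) had an unadjusted p under 0.05, beside 0.276% of all tested genes called and 24.3% at that p. For CEP+4SU against DMSO the values were 1 of 58, 0.06 and 13 (22.4%), beside 1.64% and 21.4% of all genes. For 4SU averaged they were 0 of 58, -0.005 and 5 (8.62%), beside 0.558% and 12.6%. In CEP against DMSO, 4SU against DMSO and the interaction 0 of 58 passed, with 12, 1 and 0 at an unadjusted p under 0.05, where the shares of all genes were 18.6%, 6.50% and 2.63%. DESeq2 called 2 of 58 for CEP against DMSO (FASTK and DDX28), 7 for CEP averaged and 2 for CEP+4SU against DMSO, which is 3.45%, 12.1% and 3.45% of the list beside 1.11%, 8.31% and 6.44% of the 17729 genes.

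**Figure D5:**
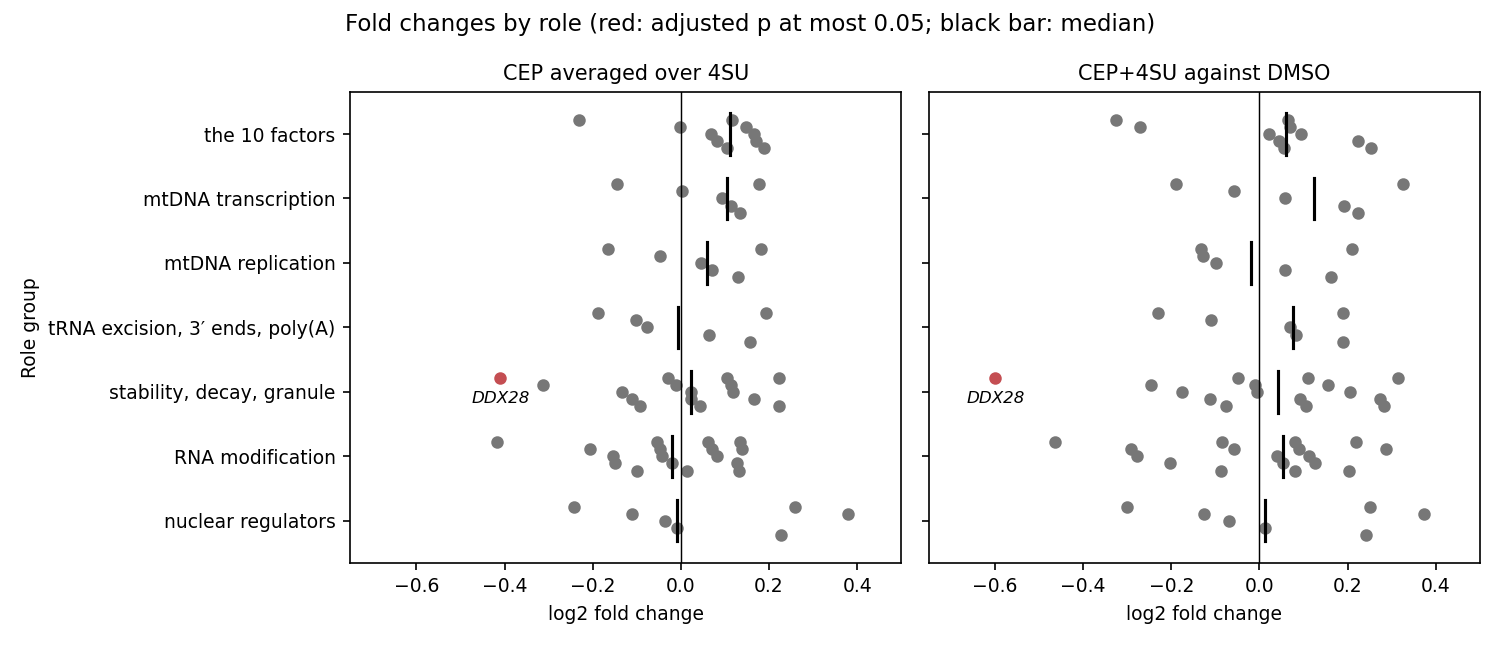
Log2 fold changes of the 10 factors and of the 58 further genes by role for CEP averaged over 4SU (left) and CEP+4SU against DMSO (right), with black bars for group medians. DDX28 (-0.41 and -0.60) was the gene past the threshold in both, and the medians of the 6 role groups lay between -0.020 and 0.12.

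By role, the 6 further transcription genes had a median of 0.10 for CEP averaged, close to the 0.11 of the 10 factors, and none of the 6 passed. The genes next in p after DDX28 for CEP averaged were FASTK, the founding member of the FASTKD2 family (-0.31, adjusted p = 0.0661), the GABP subunits GABPB1 (0.26, adjusted p = 0.0881) and GABPA (0.23, adjusted p = 0.0885), and ESRRA, an orphan nuclear receptor that acts on mitochondrial genes (-0.24, adjusted p = 0.0972). The 5 genes with the smallest p for 4SU averaged were MGME1, a nuclease of mitochondrial DNA (-0.17, adjusted p = 0.149), DDX28 (-0.19, adjusted p = 0.279), the RNA methyltransferase NSUN4 (0.15, adjusted p = 0.308), the tRNA-modifying CDK5RAP1 (0.16, adjusted p = 0.358) and the tRNA-processing protein PTCD1 (0.26, adjusted p = 0.394). For CEP+4SU against DMSO, those after DDX28 were NSUN4 (0.29, adjusted p = 0.0871), the endoribonuclease LACTB2 (0.31, adjusted p = 0.137), and the tRNA-modifying enzymes GTPBP3 (-0.28, adjusted p = 0.142) and PUS1 (-0.29, adjusted p = 0.146). GABPA, which binds ETS letters such as those shown above, and its partner GABPB1 were measured at 101 ± 1.74 and 23.6 ± 2.92 CPM (SD, n = 3) in DMSO.

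The RNA on which these factors act was measured in the same libraries. The 13 mRNAs encoded by mitochondrial DNA summed to 12814 ± 1411 CPM (SD, n = 3) in DMSO, 10067 ± 1781 in CEP, 11362 ± 779 in 4SU and 10756 ± 1248 in CEP+4SU. The summed level in CEP overlapped with that in DMSO. For CEP averaged, 2 of the 13 passed, both lower, MT-ND1 (-0.67, adjusted p = 0.00466) and MT-ND2 (-0.74, adjusted p = 3.63e-05). The fitted value of each of the 13 was below 0 in that comparison, and the share of all tested genes called was 0.276%. MT-ND1 and MT-ND2 also passed for CEP against DMSO (-0.87, adjusted p = 0.0257, and -0.88, adjusted p = 0.00147). They passed for CEP+4SU against DMSO as well (-0.78, adjusted p = 0.0211, and -0.82, adjusted p = 0.00131). The shares of all tested genes called there were 0.0564% and 1.64%. These calls were not followed under the alternative settings. A relation between the factors and these mRNAs was not tested.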

How the data were processed

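RNA-Seq of 12 HEK293T libraries was analysed as 4 groups of 3, from the sample labels. The authors removed adapter, poly-N and low-quality reads, aligned to GRCh38 with HISAT2 (2.0.5 per the submitters' processing notes) and counted fragments on genes with featureCounts (1.5.0-p3), and the deposited counts are whole numbers without normalization. The authors deposited the same table as FPKM, and the library size implied by those values is 0.981 to 1.03 of the summed counts. A further deposited table of group means was not used. Strand handling of the counting is not given in the sources used here.

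The main tool was edgeR 4.0.16 under R 4.3.3, and DESeq2 1.42.0 and limma 3.58.1 served for alternatives. Genes were kept by edgeR's filterByExpr (minimum count 10, minimum total 15), scaled by TMM and fitted in 1 quasi-likelihood model of 4 groups, with contrasts tested over all 17729 genes and Benjamini-Hochberg adjustment at 0.05. Standard errors came from the information matrix of this fit and its quasi-likelihood dispersion. The common biological coefficient of variation was 0.114. The tests were tested on simulated data. Pairs of replicates differed by more than counting noise (chi-square per degree of freedom 4.04 to 17.9), so none was counted as a duplicate. The highest value within a group was 6.96 in DMSO, 7.98 in 4SU, 17.0 in CEP and 17.9 in CEP+4SU. The main fit gave these groups a common spread. GC content is that of the longest GENCODE 29 transcript of each gene.

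The members, the gene lists and the tests were chosen with earlier results of these data known. Named were all 10 members and, of the list of 58 genes, those past the threshold in a comparison and the 5 with the smallest p for CEP averaged, 4SU averaged and CEP+4SU against DMSO. MT-ND1 and MT-ND2 were named outside this rule, because they passed the threshold for CEP averaged. PRORP was found under the older symbol KIAA0391. Alternatives were DESeq2, upper-quartile or library-size scaling, no low-count filter, a minimum of 10 counts in each library, robust dispersion, limma on log2 FPKM (pseudocounts 1 and 0.1), the replicate number as a block, removal of each library's GC or length trend, the 6 libraries of a comparison alone, an adjusted p of 0.5 as the study prints it, and libraries left out. Proteins, isoforms and 4SU incorporation were not analysed here.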

Additional observations from a re-analysis of the deposited data

How the results depend on the processing

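Of 713 values of single genes under the alternatives, 653 kept their direction and side of the threshold, 13 lost a call (all of DDX28), 15 gained one and 32 changed sign, none of the 32 past the threshold. Of 270 counts of calls, 223 stayed within 1.5 times and 47 moved. The median log2 fold change over all genes moved from its main value by at most 0.0556, with library size alone for 4SU against DMSO. The cause of the changes below was not tested.

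Counts of members called were 0 in every comparison. The replicate block gave 1 for CEP against DMSO (LRPPRC, adjusted p = 0.0498), 1 for CEP+4SU against DMSO (POLRMT, 0.0393), 3 for CEP averaged (POLRMT, 0.0323, TFAM, 0.0364, and LRPPRC, 0.0215) and 1 for 4SU averaged (SLIRP, 0.0343), with 780, 1667, 2269 and 336 calls over all genes in place of 10, 290, 49 and 99. No label says that a number marks a shared culture or day, so the block was kept as an alternative. Correlations of deviations between libraries, read at 0.1, cannot decide whether same-numbered libraries were paired. The 6 same-numbered pairs among treated groups with numbers 1 and 2 were over 0.1, as were 3 of 36 other pairs, while the 3 pairs numbered 3 (-0.102 to 0.0153) and the 9 with DMSO (-0.0117 to 0.0326) were not. The highest correlation was with a library of the same number for 9 of 12 libraries, a hint from the data and not from the design. Without the low-count filter there was 1 for CEP+4SU against DMSO, 2 for CEP averaged and 1 for 4SU averaged, beside 6.92%, 8.08% and 1.74% of the 17729 genes. DESeq2 gave 1 for CEP averaged (8.31%), and GC trend removal 1 for 4SU averaged (3.61%). An adjusted p of 0.5 gave 6, 4, 8 and 2 for CEP, CEP+4SU, CEP averaged and 4SU averaged, beside 44.4%, 47.0%, 52.3% and 20.5%. Leaving out libraries gave 0 to 1 for CEP against DMSO and 0 to 3 for CEP averaged, where leaving out CEP 1 gave 3 and CEP+4SU 1 gave 1, beside 12.2% and 6.37%.

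For the 58 genes, calls for CEP against DMSO (0) were 2 by DESeq2, 4 without the low-count filter, 5 with the replicate block and 30 at 0.5. Those are 3.45%, 6.90%, 8.62% and 51.7% of the list, beside 1.11%, 3.71%, 4.4% and 44.4% of the 17729 genes. For CEP+4SU against DMSO (1) the calls were 2, 2, 4 and 32 under the same settings. Those are 3.45%, 3.45%, 6.90% and 55.2% of the list, beside 6.44%, 6.92%, 9.4% and 47%. For CEP averaged (1) the calls were 7, 6, 9 and 36. Those are 12.1%, 10.3%, 15.5% and 62.1% of the list, beside 8.31%, 8.08%, 12.8% and 52.3%. Limma on log2 FPKM gave 0 for CEP+4SU against DMSO and for CEP averaged with a pseudocount of 1 and of 0.1, beside at most 0.0677% of the 17729 genes. For 4SU averaged (0) GC trend removal gave 1 and 0.5 gave 12, beside 3.61% and 20.5% of the 17729 genes. Leaving out libraries gave 0 to 9 for CEP (9 without CEP 1), 0 to 2 for CEP+4SU (2 without CEP+4SU 1) and 0 to 8 for CEP averaged (8 without CEP 1). The shares of the 17729 genes called in those 3 fits were 6.84%, 4.58% and 12.2%. DDX28 lost its call by limma (adjusted p = 0.109 and 0.0633 for CEP averaged, 0.0892 and 0.0765 for CEP+4SU against DMSO), and without DMSO 1, DMSO 3, CEP 3 or 4SU 3 for CEP averaged, and without any DMSO library, CEP+4SU 2 or CEP+4SU 3 for CEP+4SU against DMSO.

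Of the 32 changes of sign, 12 came with the GC trend removed, 12 with 1 library left out, 5 without CEP 2 and CEP+4SU 2, 2 with the length trend removed and 1 with the replicate block. GC trend removal gave for CEP averaged POLRMT 0.035, TFB2M -0.013, TEFM -0.014, TRMT10C -0.077 and FASTKD2 -0.12, for 4SU averaged FASTKD2 -0.015, and for CEP+4SU against DMSO TFB2M -0.074, LRPPRC -0.077, PNPT1 -0.080, SUPV3L1 -0.0061, TRMT10C -0.16 and FASTKD2 -0.13. Length trend removal gave SLIRP 0.047 for CEP averaged and LRPPRC -0.014 for CEP+4SU against DMSO. Without CEP 2 and CEP+4SU 2, CEP averaged was 0.011 for SLIRP and -0.0071 for FASTKD2, and CEP+4SU against DMSO was -0.012 for PNPT1, -0.068 for TRMT10C and -0.0031 for FASTKD2. The replicate block gave SLIRP 0.0020 for CEP averaged. Leaving out 1 library turned SLIRP for CEP averaged (-0.081 to 0.062), POLRMT (-0.17 to 0.0012) and FASTKD2 (-0.021 to 0.063) for 4SU averaged, and PNPT1 (-0.012 to 0.12), TRMT10C (-0.068 to 0.088) and FASTKD2 (-0.0030 to 0.16) for CEP+4SU against DMSO.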
